A study of Homo sapiens with 6 samples.

Results

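MCF10A is a non-tumorigenic human mammary epithelial cell line of basal character, and this account follows 8 of its signalling genes: STAT2 and IRF9, which encode subunits of the transcription factor ISGF3, the interferon regulatory factors IRF1, IRF2, IRF3 and IRF7, and the kinases JAK1 and TYK2. The 8 were picked by gene symbol, with earlier results of these data known, from the 20812 genes of an amplicon panel, in which every gene is read through 1 short stretch of its transcript. Messenger RNA was measured in 6 libraries. A pair of libraries came from the parental MCF10A cells (WT), a pair from MCF10A cells stably overexpressing eGFP (the control for transfection) and a pair from MCF10A cells stably overexpressing GIRK1, the potassium channel subunit encoded by KCNJ3. Both transfected lines were made with the vector pIRES2eGFP, selected with the antibiotic G418 and sorted for green fluorescence, so both carry eGFP and the GIRK1 cells carry the KCNJ3 coding sequence in addition. The labels name no further treatment. The sources do not say whether the members of a pair were separate cultures. The p-values here set differences against the spread between these libraries, which may be technical.

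Type I interferons bind a receptor whose chains are joined to TYK2 and JAK1. These tyrosine kinases phosphorylate STAT2, which joins IRF9 in ISGF3, and ISGF3 binds the interferon-stimulated response element (ISRE) in the promoters of its target genes. Interferon-γ instead acts through the gamma-activated sequence (GAS) and raises IRF1, an activator that is opposed at shared sites by IRF2. IRF3 is made constitutively and is switched on by phosphorylation after nucleic acids are sensed. IRF7 is known as an ISGF3 target that in turn drives interferon genes. The measurements below are of RNA only. They say nothing of phosphorylation or of protein.

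The response elements can be shown in the DNA just before the genes' starts. RefSeq promoters (assembly GRCh38.p14) were found for 5 of the 8 genes, namely STAT2, IRF9, IRF1, JAK1 and TYK2, while IRF2, IRF3 and IRF7 are named only. Printed here, 5′ to 3′ on the gene's own strand, are the 250 bases before the start of STAT2 (chr12:56360108-56360357, minus strand), IRF9 (chr14:24161015-24161264, plus strand) and IRF1 (chr5:132490774-132491023, minus strand). Those of IFIT1 (chr10:89392373-89392622, plus strand) and ISG15 (chr1:1013247-1013496, plus strand), a pair of classical ISGF3 targets described further on, are set beside them to show what the element looks like. Capitals mark every match to the ISRE core GAAANNGAAA on either strand, which on the other strand reads TTTCNNTTTC, and to the GAS core TTCNNNGAA, which reads the same on both strands.
STAT2: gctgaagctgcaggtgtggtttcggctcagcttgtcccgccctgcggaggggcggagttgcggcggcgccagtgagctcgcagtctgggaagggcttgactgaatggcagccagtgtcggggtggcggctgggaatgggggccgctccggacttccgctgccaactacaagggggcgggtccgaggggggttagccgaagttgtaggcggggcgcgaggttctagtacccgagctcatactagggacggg
IRF9: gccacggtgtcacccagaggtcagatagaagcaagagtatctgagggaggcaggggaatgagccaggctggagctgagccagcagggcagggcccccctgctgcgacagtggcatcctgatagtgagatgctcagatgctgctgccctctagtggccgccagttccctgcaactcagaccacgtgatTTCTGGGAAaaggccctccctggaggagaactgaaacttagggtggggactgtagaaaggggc
IRF1: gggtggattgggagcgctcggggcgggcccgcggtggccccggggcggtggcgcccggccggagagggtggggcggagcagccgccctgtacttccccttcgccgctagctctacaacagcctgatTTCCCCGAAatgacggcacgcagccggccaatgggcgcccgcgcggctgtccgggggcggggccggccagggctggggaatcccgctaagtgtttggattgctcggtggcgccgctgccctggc
IFIT1: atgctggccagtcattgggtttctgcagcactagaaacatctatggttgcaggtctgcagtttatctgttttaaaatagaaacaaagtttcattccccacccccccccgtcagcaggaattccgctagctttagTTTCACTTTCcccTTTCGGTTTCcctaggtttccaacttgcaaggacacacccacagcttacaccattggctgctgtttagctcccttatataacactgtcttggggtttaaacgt
ISG15: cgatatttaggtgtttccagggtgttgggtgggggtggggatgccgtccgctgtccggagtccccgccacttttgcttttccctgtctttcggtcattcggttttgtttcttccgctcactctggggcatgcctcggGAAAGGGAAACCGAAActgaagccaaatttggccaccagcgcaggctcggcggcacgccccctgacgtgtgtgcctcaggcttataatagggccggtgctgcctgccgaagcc
IRF9 held a GAS core at bases -63 to -55 from its start, and IRF1 held one at -124 to -116. JAK1 has 3 annotated starts and the other 4 genes 1 each. The windows of STAT2, JAK1 and TYK2 matched neither core, and the ISRE core was in none of the windows of the 5 genes. IFIT1 held ISRE cores at -116 to -107 and at -103 to -94, and those of ISG15, at -113 to -104 and -107 to -98, overlapped. Of all 35116 promoter windows of the same length, 3.02% held the ISRE core and 6.57% the GAS core. A match of letters is not a bound site, and a window without one says nothing of the factor.

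The genes lie on 7 chromosomes. In RefSeq (GRCh38.p14) the ISGF3 subunit genes are STAT2 at chr12:56341597-56360107 and IRF9 at chr14:24161265-24166565. The IRF genes are IRF1 at chr5:132481609-132490773, IRF2 at chr4:184387729-184474550, IRF3 at chr19:49659572-49665857 and IRF7 at chr11:612555-615950, and the kinase genes are JAK1 at chr1:64833229-65067746 and TYK2 at chr19:10350533-10380572. The amplicons are 101 to 109 bases long, with a GC content from 42.6% (JAK1) to 68.9% (IRF7). On the reference transcripts of the panel they cover bases 975 to 1083 of STAT2, 1221 to 1322 of IRF9 and 1188 to 1293 of IRF7.

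The library labelled WT replicate 1 stood apart from the other 5. Summed over 10 markers of basal mammary epithelium it had 395 reads per 1000000 reads of the library (RPM), with KRT14, KRT6A, KRT17, TP63 and S100A2 at 0, against 15444 to 34452 RPM in the others, in which TP63 alone was at 0. Over 12 luminal markers it had 19384 RPM with no marker at 0, against 531 to 1029 RPM in the others, in which ESR1, KRT19, TFF1, TFF3 and PGR were at 0. It was also the shallowest library, with 2506120 reads against 5126930 to 16040556. Its values are therefore shown apart, and the comparisons rest on GIRK1 replicates 1 and 2, eGFP replicates 1 and 2 and WT replicate 2. The leukocyte genes PTPRC, CD3E, LYZ and CD53 were at 0 in all 6 libraries. KCNJ3 itself had 2408 and 3677 reads (217 and 355 RPM) in the GIRK1 libraries, 0 in both eGFP libraries and in WT replicate 2, and 48 reads (19.2 RPM) in WT replicate 1. Against the limit of 3 reads in the shallower eGFP library, its mean in the GIRK1 cells was at least 489-fold higher.

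All 8 genes passed the filter on low counts and were fitted with 11779 genes in all with the quasi-likelihood test of edgeR, p-values being adjusted over all of them (Benjamini-Hochberg) and called below 0.05. STAT2, IRF9 and IRF7 rose in the GIRK1 cells against the eGFP cells, IRF1, IRF2, IRF3, JAK1 and TYK2 did not pass the test, and no member fell. The 3 of 8 members called compare with 1.60% of all genes tested, 0.756% being called higher and 0.840% lower. When the library labelled WT replicate 1 was put into the fit as well, none of the 8 was called and no gene at all was (606 had an unadjusted p below 0.05), although the fitted log2 fold changes of the 3 genes were then 2.06, 3.16 and 5.14. In each of the other 15 alternatives STAT2, IRF9 and IRF7 stayed called. The alternative with only the eGFP and GIRK1 libraries and the one without WT replicate 2 are the same fit, so the 15 are not all distinct. Amplicons differ in yield, so the levels given below are compared between libraries and not between genes.

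**Figure D1:**
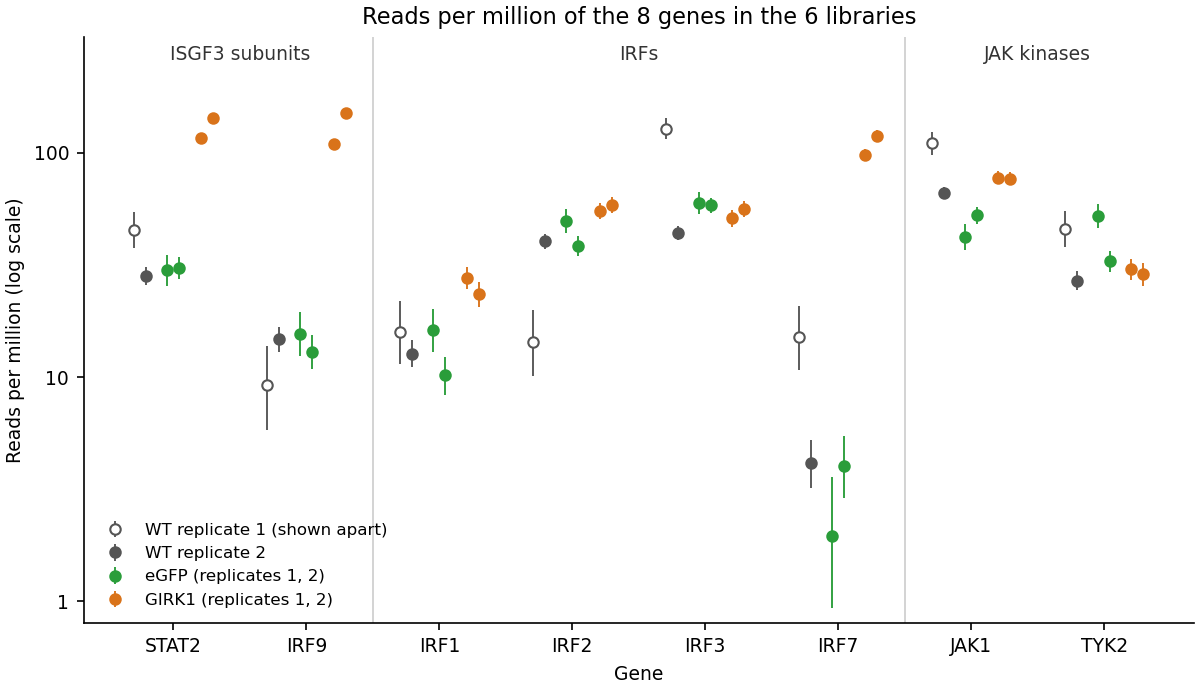
RPM (log axis) of the 8 genes in each of the 6 libraries, with exact 95% counting intervals as bars and 1 point per library, the open point being WT replicate 1. The GIRK1 points of STAT2, IRF9 and IRF7 sit between 98.3 and 151 RPM, above every point of the 4 other libraries for the same gene.

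STAT2, the subunit that brings the activation domain to ISGF3, had 1296 and 1478 reads in the GIRK1 libraries, or 117 and 142.8 RPM. It had 30.04 and 30.7 RPM in the eGFP libraries, and 28.2 RPM in WT replicate 2. The 3 control values lay close together, and both GIRK1 values were far above them. The mean was 130 ± 18.5 RPM (SD, n = 2) in the GIRK1 cells against 30.4 ± 0.456 RPM (SD, n = 2) in the eGFP cells, a 4.27-fold difference, with a log2 fold change of 2.06 (SE 0.22, adjusted p = 0.0103 by edgeR's quasi-likelihood test). Against WT replicate 2 the log2 fold change was 2.23 (SE 0.29), with an adjusted p of 0.0502 that just missed the threshold. That p depended on single libraries and settings: it fell below 0.05 in 8 of 13 alternatives, among them the fits without eGFP replicate 1 (1.57e-05), without eGFP replicate 2 (2.12e-04) and without GIRK1 replicate 1 (0.0263), and reached 0.783 with WT replicate 1 in the fit. In WT replicate 1, STAT2 stood at 45.5 RPM (114 reads).

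IRF9 gives ISGF3 its contact with DNA. Its 5 values were 110 and 151 RPM in the GIRK1 libraries, 15.6 and 13.0 RPM in the eGFP libraries and 14.8 RPM in WT replicate 2. The eGFP and WT values were interleaved, and both GIRK1 libraries stood far above them. The GIRK1 mean of 130 ± 29.3 RPM (SD, n = 2) was 9.12-fold the eGFP mean of 14.3 ± 1.84 RPM (SD, n = 2), and the log2 fold change was 3.16 (SE 0.28, adjusted p = 0.00471, edgeR). Against WT replicate 2 it was also 3.16 (SE 0.37, adjusted p = 0.0302, edgeR), and WT replicate 1 had 9.18 RPM from 23 reads. Reads of IRF9 were unevenly split over the strands, 65.5% to 77.5% being forward in the 5 libraries. Exons of IRF9 overlap those of AL136295.5 on the same strand in the GENCODE annotation, a gene that is not on the panel, and whether the amplicon lies in the shared exons was not tested.

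IRF7 showed the widest difference of the 8. It had 1092 and 1233 reads in the GIRK1 libraries (98.3 and 119 RPM), 10 and 41 reads in the eGFP libraries (1.95 and 4.01 RPM) and 66 reads in WT replicate 2 (4.12 RPM). The 95% counting intervals of the eGFP replicates, 0.935 to 3.59 RPM and 2.87 to 5.43 RPM, overlapped, and the GIRK1 libraries lay far beyond either. In means this was 109 ± 14.7 against 2.98 ± 1.45 RPM (SD, n = 2 each), a 36.5-fold difference with a log2 fold change of 5.08 (SE 0.35, adjusted p = 0.00210, edgeR). The log2 fold change against WT replicate 2 was 4.74 (SE 0.45, adjusted p = 0.0178, edgeR). Because the baseline is low, the size rests on the eGFP counts: it ranged from 4.78 to 5.69 as each library in turn was left out. The library labelled WT replicate 1 had 15.2 RPM of IRF7 from 38 reads, above the 3 controls and below both GIRK1 libraries.

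IRF1, the activator induced through GAS elements, had 27.7 and 23.4 RPM in the GIRK1 libraries, 16.2 and 10.2 RPM in the eGFP libraries and 12.7 RPM in WT replicate 2. The GIRK1 values were above all 3 controls, yet the eGFP pair itself was spread widely. The ratio of the means was 1.94 and the log2 fold change 0.92 (95% interval 0.16 to 1.69), with an unadjusted p of 0.0243 and an adjusted p of 0.196 in edgeR's quasi-likelihood test. Its call turned on 1 library, since without eGFP replicate 1 the log2 fold change was 1.35 with an adjusted p of 0.00694. Against WT replicate 2 the log2 fold change was 1.03 (adjusted p = 0.647, edgeR), or 1.02 without eGFP replicate 1 (adjusted p = 0.0357), and WT replicate 1 had 16.0 RPM. Exons of C5orf56 and AC116366.3, neither on the panel, overlap IRF1 on the opposite strand, and whether the amplicon lies there was not tested. In the 5 libraries 50% to 56.4% of IRF1 reads were forward, except in eGFP replicate 2, with 25% (26 of 104 reads). Read direction was not used to tell the strand of a transcript.

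The repressor IRF2 differed little. Its values were 55.1 and 58.6 RPM in the GIRK1 libraries, 49.9 and 38.4 RPM in the eGFP libraries and 40.3 RPM in WT replicate 2. Although the GIRK1 libraries were the highest, the gap to eGFP replicate 1 was smaller than the gap between the eGFP replicates. The log2 fold change against eGFP was 0.32 (95% interval -0.26 to 0.90, adjusted p = 0.505, edgeR) and 0.52 against WT replicate 2 (-0.20 to 1.23, adjusted p = 0.785). WT replicate 1 held 14.4 RPM, below the other 5 libraries.

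IRF3, the constitutive factor, had 51.0 and 56.1 RPM in the GIRK1 libraries, 59.7 and 58.3 RPM in the eGFP libraries and 44.0 RPM in WT replicate 2. The GIRK1 libraries thus lay between the controls. The log2 fold change was -0.18 against eGFP (95% interval -0.68 to 0.32, adjusted p = 0.670, edgeR) and 0.31 against WT replicate 2 (-0.30 to 0.92, adjusted p = 0.858), so that a doubling lies outside both intervals. WT replicate 1, at 128 RPM, was the highest of the 6. Exons of BCL2L12, which is on the panel, overlap IRF3 on the opposite strand.

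Both kinases are the enzymes bound to the interferon receptor chains, and neither passed the test. JAK1 had 77.4 and 76.8 RPM in the GIRK1 libraries, 42.3 and 52.8 RPM in the eGFP libraries, 66.5 RPM in WT replicate 2 and 111 RPM in WT replicate 1. The GIRK1 pair was tight and above the 3 controls, but WT replicate 2 lay closer to it than to the eGFP libraries. The log2 fold change against eGFP was 0.66 (95% interval 0.17 to 1.15, unadjusted p = 0.0150, adjusted p = 0.162, edgeR), and against WT replicate 2 it was 0.24 (-0.36 to 0.83, adjusted p = 0.902). Without eGFP replicate 2 the JAK1 difference from eGFP was called, at 0.76 (adjusted p = 0.0190). Exons of RAVER2, which is on the panel, overlap JAK1 on the opposite strand.

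TYK2 went the other way against eGFP, with 30.3 and 28.7 RPM in the GIRK1 libraries, 52.5 and 32.9 RPM in the eGFP libraries, 26.9 RPM in WT replicate 2 and 45.9 RPM in WT replicate 1. The GIRK1 values lay between WT replicate 2 and the eGFP libraries, and eGFP replicate 1 stood well above eGFP replicate 2. The log2 fold change was -0.58 against eGFP (95% interval -1.29 to 0.13, adjusted p = 0.342, edgeR) and 0.15 against WT replicate 2 (-0.71 to 1.02, adjusted p = 0.963). With eGFP replicate 2 left out, TYK2 was called lower than in eGFP, at -0.93 (adjusted p = 0.00866), and higher in eGFP than in WT replicate 2, at 1.08 (adjusted p = 0.0189). The remaining eGFP library in that fit is the one whose basal marker sum, 34452 RPM, was the highest of the 6. The part of that difference in the TYK2 result was not tested.

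**Figure D2:**
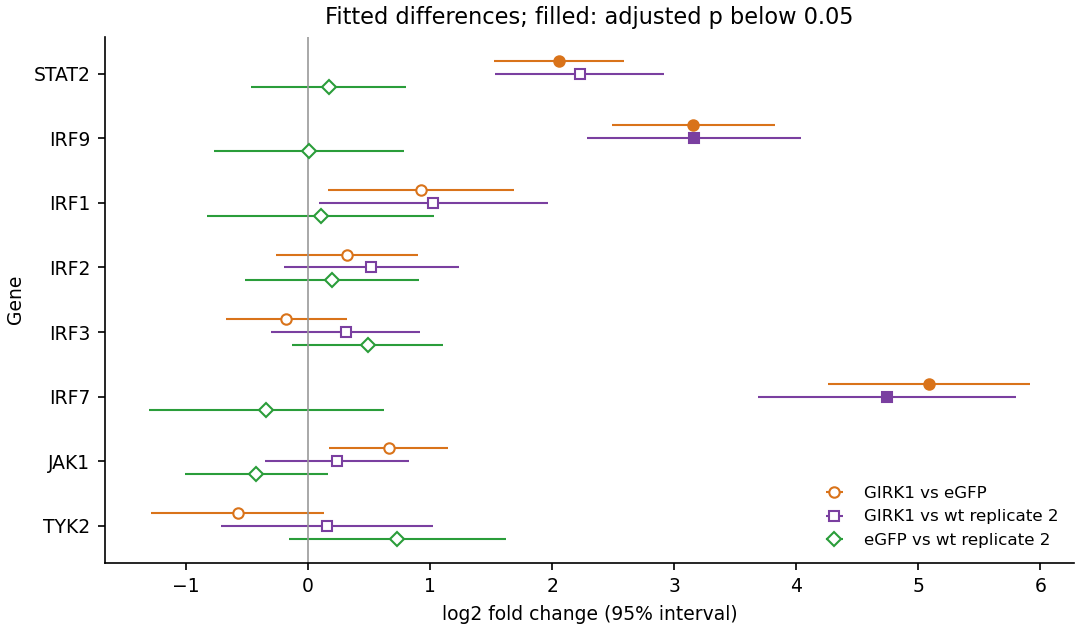
Fitted log2 fold changes of the 8 genes with 95% intervals as bars, for GIRK1 against eGFP (circles), GIRK1 against WT replicate 2 (squares) and eGFP against WT replicate 2 (diamonds), a filled symbol marking an adjusted p below 0.05. IRF7 (5.08 and 4.74) and IRF9 (3.16 in both) are filled in both comparisons with GIRK1 and STAT2 (2.06) in the comparison with eGFP, while no diamond is filled.

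Taking the comparisons as wholes, 2 of the 8 members (IRF9 and IRF7) were called in GIRK1 against WT replicate 2, both higher, where 0.195% of all genes tested were called higher and 0.0340% lower. The lone WT library is assumed in that fit to vary like the other groups, and both comparisons share the GIRK1 libraries. Between eGFP and WT replicate 2, edgeR called 0 of the 8 members and 0% of the genes tested, with 418 genes at an unadjusted p below 0.05 and 5 called by DESeq2. The log2 differences of STAT2, IRF9, IRF7 and IRF1 there were 0.17, 0.01, -0.34 and 0.10, and the widest was 0.73, for TYK2. Both GIRK1 libraries exceeded all 3 controls for 6 of the 8 members and lay below them for none, against 21.6% and 19.3% of all genes tested. By a rule with no test, group means at least 2-fold apart and an SD under 0.7 times the mean on both sides, the same STAT2, IRF9 and IRF7 counted as higher, with IRF1 just under the 2-fold line at 1.94. That rule counted 4.75% of the 13200 genes measured in both groups as higher and 5.17% as lower.

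The other genes of the pathway are given from lists of textbook members. Among the other STAT genes, STAT3, STAT6 and STAT5B had log2 fold changes of 0.52, -0.63 and -0.32 in GIRK1 against eGFP, with adjusted p-values from 0.258 to 0.473 (edgeR), where the median of all genes was 0.02.

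No receptor chain was called. The 5 tested of 6 had a median log2 fold change of -0.09, with IFNGR1, a chain of the interferon-γ receptor, at 0.92 (adjusted p = 0.177, edgeR) and IFNAR2 of the type I receptor at -0.28 (adjusted p = 0.579). IFNAR1 had 29.8 and 27.4 RPM in the GIRK1 libraries and 24.0 to 27.5 RPM in the 3 controls. The other IRFs and the IRF2-binding corepressors gave none called of 5 tested, with a median of -0.11. IRF2BPL came nearest, at 0.87 (adjusted p = 0.148), and IRF5 had -0.50 (adjusted p = 0.439).

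Among 11 tested inhibitors of JAK-STAT signalling 1 was called, against 1.60% of all genes, and this was USP18, the ISG15 protease that also binds the receptor and blocks its signalling. USP18 had 58.2 and 73.3 RPM in the GIRK1 libraries against 10.1 and 7.92 RPM in the eGFP libraries and 9.79 RPM in WT replicate 2, a log2 fold change of 2.84 (adjusted p = 0.00764, edgeR). In the comparison with WT replicate 2 edgeR called 0 of the 11, with USP18 at 2.77 (adjusted p = 0.0502). Its lower GIRK1 library was above all 4 others. The list's median was -0.06, and the phosphatase PTPN1 had -0.66 (adjusted p = 0.183). Of 13 tested activators of IRF3 and IRF7, 3 rose, against 0.756% of all genes called higher, and all 3 are sensors of RNA: DDX58 (RIG-I) by 3.33 on the log2 scale, IFIH1 (MDA5) by 2.62 and TLR3 by 2.32, with adjusted p-values of 0.00372, 0.0261 and 0.0451. Set against WT replicate 2, DDX58 was the 1 of 13 called (adjusted p = 0.0292), while IFIH1 and TLR3 had adjusted p-values of 0.162 and 0.359. The kinase IKBKE, which phosphorylates both factors, had -0.56 (adjusted p = 0.313), and the list's median was 0.10.

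Targets of ISGF3 moved widely. Of 32 listed genes 30 were tested and 24 were called higher, none lower, against 0.756% of all genes called higher, and all 30 had a positive log2 fold change. The list was drawn up with earlier results of these data known, so its count is not independent evidence of a direction. Its median log2 fold change was 4.27, or 3.75 with SAMD9L, XAF1 and MX2, which had 0 reads in both eGFP libraries, entered at their lower bounds of 7.22-, 9.60- and 1.77-fold. SAMD9L, XAF1, MX2 and CMPK2 had means of at most 0.049 RPM in eGFP and values of at most 0.374 RPM in WT replicate 2. These genes passed the filter on low counts only through the GIRK1 libraries, so their positive sign was fixed by the filter. IFIT1, which binds foreign RNA, had 251 and 359 RPM in the GIRK1 libraries, 2.34 and 1.56 RPM in the eGFP libraries (12 and 16 reads) and 3.24 RPM in WT replicate 2. Its log2 fold change was 7.31 (SE 0.39, adjusted p = 0.00159, edgeR). OAS2, an RNA-activated synthetase, had 916 and 1122 reads in the GIRK1 libraries against 4 and 3 in the eGFP libraries, so its fitted 7.62 rests on a handful of control reads. IFI44 and HERC6 rose by 4.72 and 4.33. Against WT replicate 2, 12 of the 30 were called higher, with a median of 3.93.

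The list of IRF1 and interferon-γ targets moved less. Of 19 tested out of 23, 4 were called higher (GBP1, PSMB9, TAP1 and B2M) and none lower, against 0.756% of all genes called higher. The median was 1.01, or 0.95 with GBP5 at its bound. Log2 fold changes were positive for 17 and negative for 2, the lowest being ICAM1 at -1.44 (adjusted p = 0.211, edgeR). This list too was drawn up with earlier results of these data known, and GBP5 passed the filter on low counts only through the GIRK1 libraries. GBP1, a guanylate-binding protein, had 38.5 and 49.9 RPM in the GIRK1 libraries and 10.7, 7.62 and 7.05 RPM in the controls, a log2 fold change of 2.24 (adjusted p = 0.0250, edgeR). PSMB9 of the immunoproteasome rose by 2.33, the peptide transporter TAP1 by 1.42 and B2M, the light chain of MHC class I, by 1.47 on the log2 scale. Against WT replicate 2 none of the 19 was called by edgeR, and the median was 1.29. The difference between the lists of targets was not tested. In the 250 bases before the start, ISRE cores were held by 19 of 26 tested ISGF3 targets with a promoter found (73.1%). They were held by 9 of 14 IRF1 and interferon-γ targets (64.3%), against 3.71% of all genes. GAS cores were in 6 of the 26 and 7 of the 14, against 8.09%. Both are lists of textbook targets, which may be classed as targets because of such elements, so these shares are not independent evidence.

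**Figure D3:**
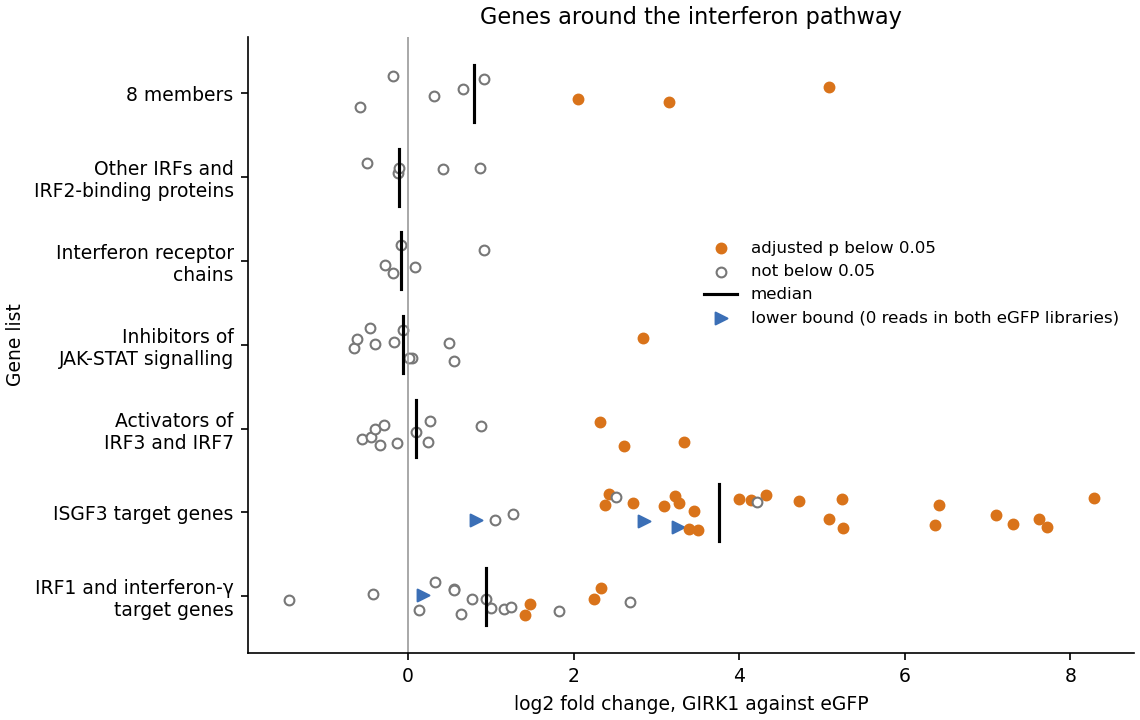
Fitted log2 fold changes in GIRK1 against eGFP for the 8 genes and for 6 lists around them, 1 point per gene, filled where the adjusted p was below 0.05, with the median as a line and triangles for the lower bounds of genes with 0 reads in both eGFP libraries. The ISGF3 targets lie to the right of 0 as a whole (24 of 30 called, SAMD9L among them), while receptors, inhibitors and other IRFs scatter about 0 with USP18 alone filled.

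The genes whose pattern over the 5 libraries lay closest to IRF7 and IRF9, the members with the smallest p, were sought among 9287 genes that averaged 50 reads or more. Likeness was the root mean square distance between log2(RPM + 1) values, each gene centred on its mean. For IRF7 the 5 closest were IFI44 (0.16), ISG15 (0.22), KLHDC7B (0.25), IFI44L (0.29) and HERC6 (0.38). Close to IRF9 were USP18 (0.19), DDX58 (0.23), REC8 (0.24) and IFI35 (0.24). ISG15, the ubiquitin-like modifier, ran from 15.2 to 36.2 RPM in the 3 controls and had 667 and 861 RPM in the GIRK1 libraries, and like IRF7 it was lowest in eGFP replicate 1. With 5 libraries, 2 of them from the GIRK1 cells, these distances mostly measure the size of the step between the GIRK1 libraries and the rest.

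**Figure D4:**
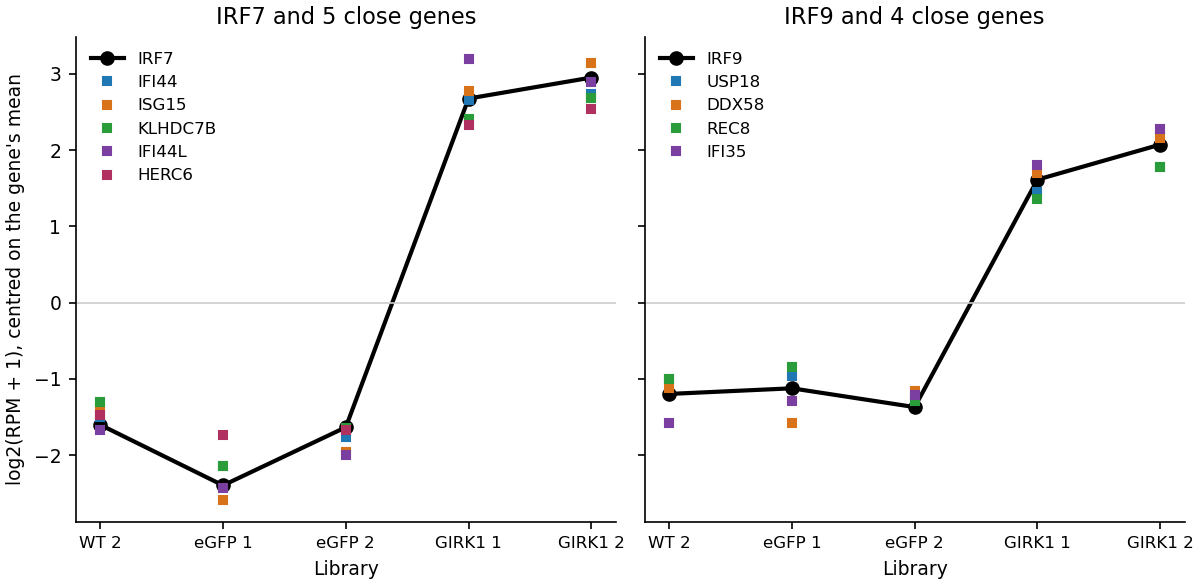
Centred log2(RPM + 1) of IRF7 and IRF9 (black line) and of 5 and 4 genes close to them (squares) in the 5 libraries. In both panels the 3 control libraries sit below 0 and both GIRK1 libraries above it, with a larger step for IRF7 than for IRF9.

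Some other measures moved with the GIRK1 libraries. The 8 fibroblast markers summed to 31.9 and 33.5 RPM in them and to 8.60 to 13.7 RPM in the 3 controls, while COL1A2, PDGFRA and THY1 were at 0 in all 6 libraries. Most of the sum in the GIRK1 cells was DCN, with a mean of 26.1 RPM against 2.25 RPM in eGFP and 10.2 RPM in WT replicate 2. DCN was called higher against eGFP. COL1A1, the only other fibroblast marker tested, was not called, with log2 fold changes of -0.13 against eGFP and 1.19 against WT replicate 2. Of 9 tested basal markers LAMB3 was called lower and KRT17 higher, again against eGFP. Against WT replicate 2 the log2 fold changes of DCN, LAMB3 and KRT17 were 1.37, -1.55 and 1.43, and none of them was called. The basal sum of the GIRK1 libraries, 15646 and 15860 RPM, lay inside the range of the controls. The part of these markers in the differences of the 8 genes was not tested. The names of the deposited tables carry a tag shared by both GIRK1 libraries and by no other library. Its meaning is not given in the sources used here, and anything it marks cannot be told apart from the overexpression. In bulk RNA, more cells with a transcript and more transcript per cell cannot be told apart either.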

How the data were processed

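RNA from cells harvested at 70% - 80% confluence was made into Ion AmpliSeq transcriptome libraries and sequenced by the authors on an Ion S5 XL. Their pipeline counted reads per amplicon, 1 amplicon per gene, and the deposited tables give these counts beside RPM, the authors' reads per 1000000 reads of the library. The totals ran from 2506120 to 16040556 reads, at which 3 reads are 1.20 to 0.187 RPM. Counting intervals are exact binomial (Clopper-Pearson) at 95%, and like the limit of 3 reads they cover counting error only. Amplicon reads carry no molecular identifiers.

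Groups were taken from the sample titles. The counts were fitted with edgeR 4.0.16 (quasi-likelihood F test, two-sided, TMM, filterByExpr, Benjamini-Hochberg over all 11779 genes kept, threshold 0.05) on 5 libraries with 1 mean per group, and the common coefficient of biological variation was 0.243 with 2 residual degrees of freedom. WT replicate 1 stayed out, and alternatives with it in, other scalings and filters, DESeq2 1.42.0, a replicate block, end-to-end reads and each library left out were run. The 8 members, the gene lists and the tests were chosen with earlier results of these data known. Named are the 8 members, KCNJ3, the 4 genes of smallest p in each list and the 5 closest patterns, some of which are not reported here, and further genes were named after their values were seen (IFNAR1, DCN, LAMB3, KRT17 and the genes at 0). Gene lists were matched by symbol or older symbol. Promoters came from RefSeq and gene overlaps from GENCODE v29. Python 3.11.15 and R 4.3.3 were used.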

Additional observations from a re-analysis of the deposited data

Results flagged for a closer look

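The library labelled WT replicate 1, which enters no comparison of the report, held STAT2, IRF3, IRF7 and JAK1 above the 3 control libraries by more than its 95% counting interval. The share of all genes that lie so was not counted. Over 9212 genes the log2 ratio of the WT replicates had an SD of 2.14, against 0.68 in eGFP and 0.36 in GIRK1. STAT2 had 45.5 RPM against 28.2 to 30.7 RPM, IRF3 had 128 RPM against 44.0 to 59.7 RPM, IRF7 had 15.2 RPM against 1.95 to 4.12 RPM and JAK1 had 111 RPM against 42.3 to 66.5 RPM. KCNJ3 had 19.2 RPM there (95% interval 14.1 to 25.4 RPM) and 0 reads in the controls. IRF2 lay below the controls, at 14.4 RPM against 38.4 to 49.9 RPM, and the intervals of IRF9, IRF1 and TYK2 overlapped the controls' range. The same library had the low basal and high luminal marker sums given in the report, and their part in these values was not tested.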

How the results depend on the processing

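With WT replicate 1 in the fit, edgeR called 0 genes and 0 members in GIRK1 against eGFP and 0 and 0 in GIRK1 against WT (606 and 648 genes at an unadjusted p below 0.05). The adjusted p of IRF7, IRF9 and STAT2 against eGFP was then 0.483, 0.459 and 0.623, and signs turned for IRF3 (-0.57), JAK1 (-0.10) and TYK2 (-0.20) against WT and for STAT2 (-0.15) and IRF3 (-0.40) in eGFP against WT, none of them called. In GIRK1 against eGFP, 188 genes became 865 with no filter, 107 with at least 10 reads in every library and 677 with DESeq2, and 158 to 2997 as each library was left out (973 without eGFP replicate 1, 2997 without eGFP replicate 2). Members called ranged from 3 to 5. Against WT replicate 2, 27 genes became 133, 16 and 128 under the same settings and 34 to 576 with a library left out (576 without eGFP replicate 1, 449 without eGFP replicate 2, 64 without GIRK1 replicate 1), with 2 to 4 members. In eGFP against WT replicate 2, 0 genes became 6 with no filter and 5 with DESeq2, and 5 to 1268 with a library left out, with 0 to 1 members (1268 and TYK2 without eGFP replicate 2). IRF9, near 0 there, turned to -0.0550 with total reads, -0.00778 with the upper quartile, -0.0124 with no filter and -0.00371 with at least 10 reads. With a library left out, IRF9, IRF1 and IRF2 there ranged from -0.19 to 0.20, from -0.32 to 0.47 and from -0.0710 to 0.43, the lowest being without eGFP replicate 1.

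Under a replicate block (the labels' numbers) the counts were 549, 77 and 1, STAT2 was called against WT replicate 2 as well (adjusted p = 0.0162), and TYK2 against WT replicate 2 (-0.0473) and IRF1 in eGFP against WT replicate 2 (-0.17) changed sign without being called. Deviations of same-numbered libraries correlated across 9212 genes at 0.196 (eGFP with GIRK1), 0.110 (eGFP with WT) and 0.0269 (GIRK1 with WT). No label ties the numbers to a shared day or culture, so whether same-numbered libraries share one cannot be told. The members counted by the 2-fold rule stayed 3 in its 3 alternatives. Of the fitted member values, 304 kept direction and side of the threshold, 13 crossed to called, 5 lost the call and 14 changed sign. That tally counts the fit without WT replicate 2 again as the fit on only the eGFP and GIRK1 libraries. With 2 libraries a group, precision is limited by the spread between libraries. The replicate log2 ratio had an SD over genes of 0.68 in eGFP against 0.36 in GIRK1, and the 10 IRF7 reads of eGFP replicate 1 are the thinnest value behind a called member.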
